A study of Mus musculus with 19 samples.

Results

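The transcription factors that establish and maintain the microglial lineage were followed in retinal microglia during experimental choroidal neovascularization (CNV). The 9 factors were chosen by name, namely *Spi1*, *Irf8*, *Sall1*, *Maf*, *Mef2a*, *Mef2c*, *Runx1*, *Bhlhe41* and *Cebpa*, and all 9 were present among the 27299 genes measured. Bulk RNA-seq had been performed on 6 samples of unlasered eyes (control) and 6 samples of lasered eyes 3 days after laser treatment (CNV d3). All mice were 8 weeks old; 6 argon laser burns per eye had been used in the CNV d3 group, and only the central retina was taken in both groups. The strain label reads C57BL/6J and the study's methods name *Cx3cr1* GFP/+ mice, in which 1 copy of the fractalkine receptor gene is replaced by a green fluorescent reporter; controls and CNV d3 samples share this background. Viable cells had been sorted as CD11b+CX3CR1+Ly6C-Ly6G-, with CD45 given as positive in the labels and as low in the methods. No source states how many mice entered a sample, so the p-values below measure the spread between these samples, which may be technical.

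In the central nervous system, retina included, the macrophages of the parenchyma are microglia, a lineage that is set up in the embryo and renews itself locally. PU.1, the product of *Spi1*, is an ETS-family factor that opens the enhancers of all macrophages, and it binds many of them together with IRF8. On this shared macrophage base, SALL1 and the MEF2 factors select the enhancers that are particular to microglia, SALL1 in dependence on TGF-beta signalling from the tissue. RUNX1 and C/EBP alpha act earlier, in the emergence of myeloid progenitors, and remain expressed in mature macrophages. MAF restrains self-renewal in macrophages, and BHLHE41 is a circadian E-box repressor that is also found in tissue macrophages. Loss of several of these factors, among them PU.1 and IRF8, removes or alters microglia in mice.

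RefSeq gives promoters on the GRCm38.p6 build for 7 of the 9 factors, with 13 start sites in all; *Spi1* and *Maf* were not matched. The 250 bases upstream of each start were searched on both strands for binding motifs of the factors themselves. The letters GAGGAA, the core of the PU-box bound by PU.1, were found upstream of *Mef2a* and of 1 of the 2 *Runx1* starts. They also lay upstream of *Mef2c* starts 1 and 2 but not 3. Of all 32841 promoters of this length, counted by start, 23.3% hold them. The E-box CACGTG, which BHLHE41 binds, lay upstream of *Bhlhe41* itself and of the other *Runx1* start, against 6.02% of all promoters. The MAF recognition core TGCTGA (16.1% of promoters) occurred at 1 start each of *Irf8* and *Mef2c*. The RUNX motif TGTGGT, the C/EBP motif TTGCNNAA, the IRF motif GAAANNGAAA and the MEF2 box were not found in these windows. These matches describe letters only, and which start is used in these cells was not measured.

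The promoters of *Mef2c*, *Mef2a* and *Sall1* are shown because all 3 genes fell at CNV d3 as described further on, and because they differ in the letters they hold. The *Mef2c* window, that of start 1 of 3, is chr13:83503784-83504033 on the plus strand, with 1 PU-box in capitals and a GC content of 33.6%. The *Mef2a* window is chr7:67372859-67373108 on the minus strand, with 2 PU-boxes in capitals and a GC content of 61.6%. The *Sall1* window, also that of start 1 of 3, is chr8:89044163-89044412 on the minus strand, with none of the motifs and a GC content of 56.4%. Each is printed 5′ to 3′ in the direction of its gene and ends at the base before the start.
Mef2c: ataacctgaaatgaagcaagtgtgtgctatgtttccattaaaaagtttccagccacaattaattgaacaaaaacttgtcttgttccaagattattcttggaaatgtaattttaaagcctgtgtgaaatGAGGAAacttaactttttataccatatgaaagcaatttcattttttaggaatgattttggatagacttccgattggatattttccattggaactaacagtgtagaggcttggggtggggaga
Mef2a: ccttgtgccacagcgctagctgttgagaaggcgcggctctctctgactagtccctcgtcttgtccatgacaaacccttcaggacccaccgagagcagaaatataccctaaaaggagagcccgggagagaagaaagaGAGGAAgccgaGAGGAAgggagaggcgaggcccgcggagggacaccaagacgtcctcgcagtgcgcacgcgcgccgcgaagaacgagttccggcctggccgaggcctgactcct
Sall1: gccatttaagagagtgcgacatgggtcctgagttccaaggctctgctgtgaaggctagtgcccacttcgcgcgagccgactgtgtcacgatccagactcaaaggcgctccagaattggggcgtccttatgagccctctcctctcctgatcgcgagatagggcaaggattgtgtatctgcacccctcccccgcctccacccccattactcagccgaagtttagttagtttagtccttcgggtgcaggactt

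Values are normalized counts, meaning reads on a gene divided by a size factor for each sample. The libraries held 10963178 to 22335233 reads on genes in controls and 23532260 to 29523018 at CNV d3, and each factor averaged 1929 to 17426 normalized counts, so that low counts did not limit any of the 9. The sorted cells had the defining transcripts of microglia: *Cx3cr1*, *P2ry12*, *Tmem119*, *Csf1r*, *Itgam* and *Aif1* summed to between 741849 and 800631 normalized counts in controls and to between 383161 and 593754 at CNV d3. Neutrophil and lymphocyte markers were at or near 0 in all samples, with sums of at most 30.4. The share of reads on *Malat1*, a nuclear RNA, was 0.0894% to 0.150% in controls and 0.0230% to 0.0345% at CNV d3, and intronic and unconfirmed transcripts took 0.235% to 0.345% and 0.0736% to 0.118%; the part of these differences in the results was not tested.

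Of the 9 lineage factors, 5 were significantly lower at CNV d3 (*Mef2c*, *Maf*, *Mef2a*, *Sall1* and *Spi1*) and none was significantly higher. A gene was called changed when limma, fitted to log2(normalized count + 1) across all genes, gave a Benjamini-Hochberg adjusted p under 0.05. The 5 decreased factors are 55.6% of the list, where 4.57% of all genes were decreased, and 15.1% of the 3877 genes with a mean of at least 1000 normalized counts, the range of expression of these factors. No factor was increased, at an unadjusted p under 0.05 either and by edgeR as well, where 8.29% of all genes and 22% of the highly expressed genes were increased. The groups did not overlap for 3 factors, *Irf8*, *Maf* and *Mef2c*, with all 6 CNV d3 samples below all 6 controls. Of all genes 2.83% had this pattern. The share among the highly expressed genes was not computed, so nothing is read from this count. None of the 9 was a DEG, defined as an adjusted p under 0.05 and an absolute log2 fold change above 1.5, a rule met by 4.99% of all genes in either direction. The median log2 fold change of the factors was -0.37, beside 0.15 over all genes and 0.06 over the highly expressed ones. In bulk RNA a smaller share of cells with a transcript and less of it per cell cannot be told apart.

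**Figure D1:**
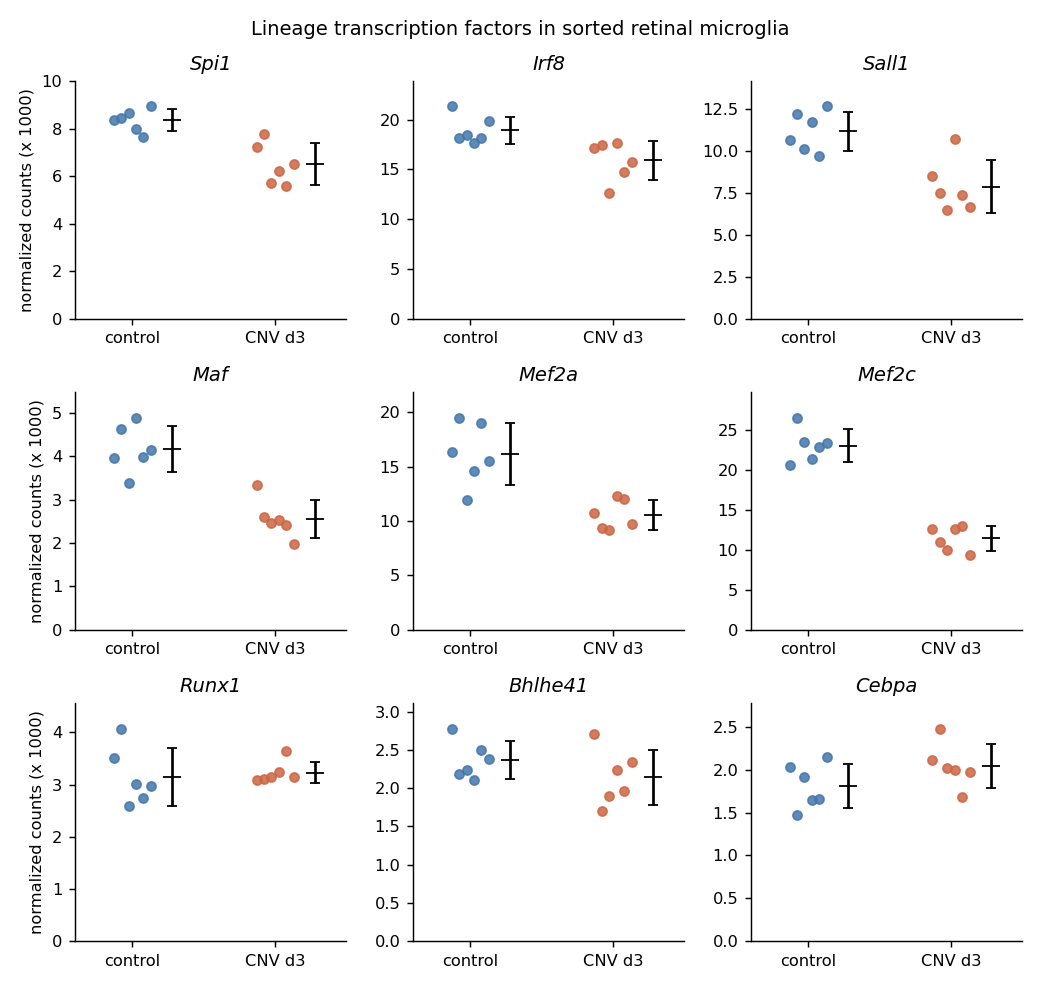
Normalized counts (axis in units of 1000, linear from 0) of the 9 lineage factors in 6 control and 6 CNV d3 samples; points are samples and the bars beside them are mean ± SD. All CNV d3 points lie below all control points for Irf8, Maf and Mef2c, and the groups overlap for the other 6 factors.

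PU.1 and IRF8 form the general macrophage layer. *Spi1* (chr2:91082390-91115756, plus strand) had 8379, 8437, 8673, 8005, 7640.3 and 8933 normalized counts in control samples 1 to 6. In CNV d3 samples 1 to 6 it had 7241, 7789, 5701, 6202, 5604 and 6522. All CNV d3 samples but sample 2 thus lay below the lowest control. The mean fell from 8345 ± 464 to 6509.9 ± 865 (SD, n = 6 each), a log2 fold change of -0.37 ± 0.09 (SE; limma adjusted p = 0.0129).

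*Irf8* (chr8:120736358-120756694, plus strand), which encodes the interferon regulatory factor that partners PU.1, had 21330.4, 18146, 18492, 17692, 18167 and 19839 normalized counts in controls. At CNV d3 the values were 17178, 17505, 12673, 17627, 14697 and 15768. The groups did not overlap, with the highest CNV d3 sample just under the lowest control. The mean was 18944 ± 1379 in controls and 15908 ± 1953 at CNV d3 (SD, n = 6 each), a log2 difference of -0.26 ± 0.09 (SE) that did not pass across all genes (limma adjusted p = 0.0650). *Irf8* did pass with DESeq2 on the recovered reads (adjusted p = 0.0301), with low genes filtered out before limma (0.0381) and with upper quartile scaling (0.0186), but not with edgeR (0.119).

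The log2 ratio of *Irf8* to *Spi1* counts was 1.18 ± 0.10 in controls and 1.29 ± 0.14 at CNV d3 (SD, n = 6 each), a difference of 0.11 ± 0.07 (SE) that did not pass the exact permutation test (two-sided p = 0.152, also 0.152 after adjustment over 5 pairs). Among CNV d3 samples this ratio ran from 1.15 to 1.51, and among controls from 1.09 to 1.35. Of all pairs among the 9 factors, these had the most similar profiles over the 12 samples, with a root mean square difference of 0.12 on the log2 scale after each profile was centred on its mean. The least similar pair, *Mef2c* and *Cebpa*, differed by 0.65.

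SALL1 is the zinc finger repressor that sets microglia apart from other macrophages. *Sall1* (chr8:89027235-89044162, minus strand) had 10658, 12188, 10121, 11713, 9711 and 12664 normalized counts in controls. At CNV d3 it had 8507, 7523, 6495, 10738, 7359 and 6645. CNV d3 sample 4 lay inside the control range, and the other 5 lay below it. The mean fell from 11176 ± 1188 to 7878 ± 1575 (SD, n = 6 each; log2 fold change -0.52 ± 0.12 SE, limma adjusted p = 0.00841).

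The large MAF factor *Maf* (chr8:115682942-115707794, minus strand) had 3956, 4629, 3377, 4886, 3978 and 4143 normalized counts in controls and 3333, 2589, 2468, 2522, 2402 and 1985 at CNV d3. The groups did not overlap, although CNV d3 sample 1 came within a short distance of control 3. The mean fell from 4161 ± 536 to 2549.8 ± 439 (SD, n = 6 each; log2 fold change -0.71 ± 0.12 SE, limma adjusted p = 0.00134).

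MEF2 proteins bind DNA as dimers at AT-rich sites that mark microglial enhancers. *Mef2c* (chr13:83504034-83667080, plus strand) had 20698, 26588, 23473, 21416, 22872 and 23454 normalized counts in controls. At CNV d3 it had 12671.5, 11062, 9986, 12608, 12947 and 9389. No CNV d3 sample came near the control range. The mean fell from 23083.5 ± 2054 to 11444 ± 1524 (SD, n = 6 each), which is 49.6% of the control mean, and the log2 fold change of -1.02 ± 0.09 (SE) was the largest of the 9 factors (limma adjusted p = 1.22e-05).

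*Mef2a* (chr7:67231163-67372858, minus strand) had 16362, 19504, 11936, 14639, 19040.1 and 15536 normalized counts in controls and 10771, 9393, 9203, 12292, 12062 and 9703 at CNV d3. The groups overlapped through control 3 alone, the lowest control, which 2 CNV d3 samples exceeded. The mean fell from 16169.6 ± 2831 to 10571 ± 1359 (SD, n = 6 each; log2 fold change -0.60 ± 0.12 SE, limma adjusted p = 0.00339). *Mef2c* fell by more than *Mef2a*: the log2 ratio of *Mef2a* to *Mef2c* rose from -0.53 ± 0.25 to -0.11 ± 0.11 (SD), without overlap of the groups, a difference of 0.41 ± 0.11 (SE). The exact permutation test gave a two-sided p of 0.00216, the smallest that 924 labelings can give, and 0.00361 after adjustment over 5 pairs.

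**Figure D2:**
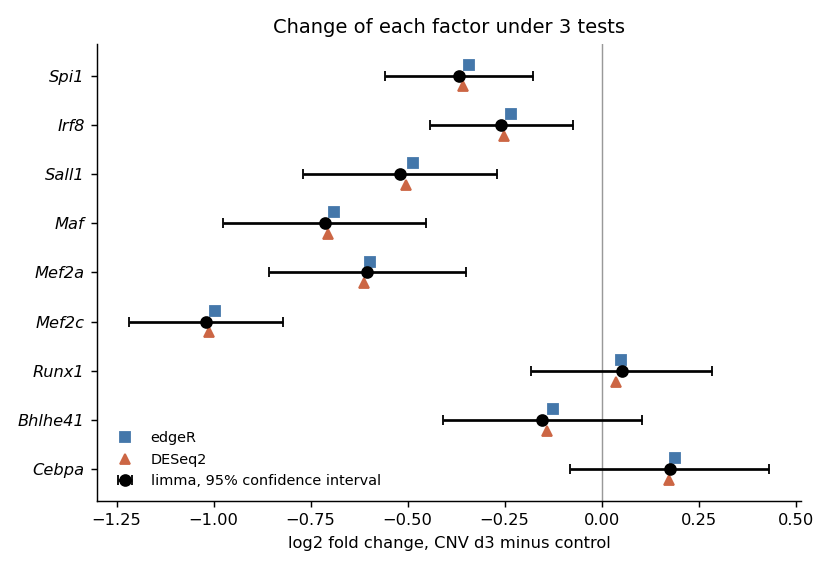
Log2 fold change of each lineage factor, CNV d3 minus control, by limma (black circles, bars are 95% confidence intervals), edgeR (blue squares) and DESeq2 (orange triangles), each over 6 control and 6 CNV d3 samples. The tools differ little for any factor; Mef2c lies farthest left at -1.02, and the limma intervals of Runx1, Bhlhe41 and Cebpa include 0.

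The factors of myeloid emergence and the E-box repressor did not pass the test. *Runx1* (chr16:92601466-92826149, minus strand) had 3515, 4071, 2592, 3009, 2734.5 and 2967 normalized counts in controls and 3092, 3109, 3139.8, 3239, 3637 and 3149 at CNV d3. All 6 CNV d3 values lay within the control range. The means were 3148 ± 551 and 3228 ± 207 (SD, n = 6 each), with a log2 difference of 0.05 and a 95% confidence interval of -0.18 to 0.29 (limma adjusted p = 0.768); the sign turned negative with upper quartile scaling and without control 3.

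*Cbfb* encodes the partner that RUNX proteins need for stable binding to DNA. It rose from 1344 ± 155 to 2542 ± 285 normalized counts (SD, n = 6 each; log2 fold change 0.92 ± 0.11 SE, limma adjusted p = 1.13e-04), with no overlap of the groups. The ratio of *Runx1* to *Cbfb* accordingly went from 2.33 in controls to 1.27 at CNV d3, a log2 difference of -0.87 ± 0.09 (SE; exact permutation test, two-sided p = 0.00216, adjusted 0.00361). In log2 units this ratio spanned 1.02 to 1.45 in controls and 0.21 to 0.55 at CNV d3.

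*Bhlhe41* (chr6:145858243-145865558, minus strand) had 2780.5, 2189.8, 2242, 2110.0, 2499.6 and 2385 normalized counts in controls and 2711, 1704, 1903, 2244, 1966 and 2344 at CNV d3. The ranges overlapped broadly. The log2 difference was -0.15 with a 95% confidence interval of -0.41 to 0.10 (limma adjusted p = 0.480). *Bhlhe40*, its close relative with the same E-box preference, rose from 103 ± 77.9 to 681 ± 358 normalized counts (SD, n = 6 each; log2 fold change 3.09 ± 0.61 SE, limma adjusted p = 0.00335). *Bhlhe41* counts were 32.9 times those of *Bhlhe40* in controls and 3.48 times at CNV d3 (geometric means of the ratio), a log2 difference of -3.24 ± 0.74 (SE; exact permutation test, two-sided p = 0.00216, adjusted 0.00361). The spread of this ratio among controls was wide, from 3.57 to 7.38 in log2 units, but every CNV d3 sample was lower, from 0.55 to 2.96.

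*Cebpa* (chr7:35119293-35121928, plus strand), the C/EBP factor of myeloid progenitors, had 2031, 1475, 1919.8, 1652, 1658 and 2149 normalized counts in controls and 2113, 2479, 2026, 1998, 1681 and 1969.6 at CNV d3. Its ranges overlapped, with only CNV d3 sample 2 above the highest control. The log2 difference was 0.18 with a 95% confidence interval of -0.08 to 0.43 (limma adjusted p = 0.405). *Cebpb*, the C/EBP factor of inflammatory responses, had 2219.5 ± 499 normalized counts in controls and 3135 ± 887 at CNV d3 (SD, n = 6 each; log2 difference 0.48 ± 0.18 SE, limma adjusted p = 0.104). The ratio of both differed by -0.31 ± 0.16 (SE) and did not pass (exact permutation test, two-sided p = 0.0801, adjusted 0.1001). It passed without control 3 (-0.39, adjusted p = 0.0298 by the same exact test) or without CNV d3 sample 1 (-0.38, 0.0460).

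**Figure D3:**
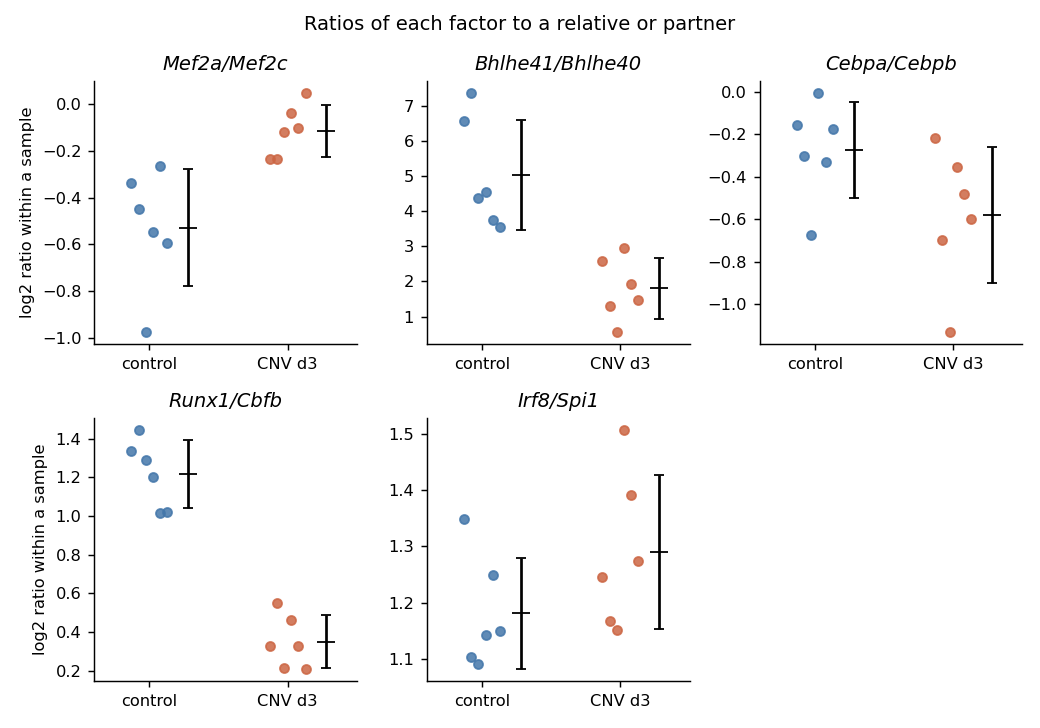
Log2 ratio of the normalized counts of each factor to a relative or partner in 6 control and 6 CNV d3 samples; points are samples, bars are mean ± SD, and each panel has its own axis. The groups do not overlap for Mef2a/Mef2c, Bhlhe41/Bhlhe40 and Runx1/Cbfb.

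Per kilobase of all annotated exons, *Spi1*, *Irf8* and *Sall1* had the highest levels of the 9 factors in both groups. This order depends on the length chosen. Per kilobase of the longest transcript, *Mef2c* (3677 normalized counts per kb) and *Mef2a* (2920) lay above *Sall1* (2123) in controls. The levels that follow are per kilobase of all exons. In controls *Spi1* had a level of 3096 ± 172 normalized counts per kb (SD, n = 6), rank 252 of 27238 genes with an annotated length. *Irf8* followed with 2685 ± 195 and *Sall1* with 2123 ± 226. The MEF2 factors were next, *Mef2c* at a level of 1469 ± 131 and *Mef2a* at 1101 ± 193 normalized counts per kb. *Cebpa* (688 ± 98.3), *Maf* (505 ± 65.0), *Bhlhe41* (352 ± 36.6) and *Runx1* (262 ± 45.8, rank 3411) closed the order.

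At CNV d3 *Spi1* had a level of 2416 ± 321, *Irf8* of 2255 ± 277 and *Sall1* of 1496 ± 299 normalized counts per kb (SD, n = 6). *Cebpa* (776 ± 98.0), *Mef2c* (728 ± 97.0) and *Mef2a* (720.02 ± 92.6) came next. *Bhlhe41* (319 ± 53.8), *Maf* (309 ± 53.2) and *Runx1* (268 ± 17.2) formed the lowest set, within which *Maf* had dropped below *Bhlhe41*. None of the 16 pairs of neighbours in the 2 orders passed an exact paired permutation test after adjustment. The smallest two-sided p that 6 samples allow is 0.03125. It was reached by 9 pairs, with an adjusted p of 0.0556, and these 9 kept their order in all 6 samples. With this floor a few pairs could not pass an adjustment over 16, and the order came from the same values, so nothing is read from this test. At CNV d3, *Spi1* and *Irf8*, *Cebpa* and *Mef2c*, *Mef2c* and *Mef2a*, *Bhlhe41* and *Maf*, and *Maf* and *Runx1* each changed places in at least 2 of the 6 samples. The order also rests on the length used: with the longest transcript in place of all exons, *Irf8* led *Spi1*, *Sall1* took rank 5 in both groups, and at CNV d3 *Mef2a* (1909 ± 245 normalized counts per kb) and *Mef2c* (1823 ± 243) lay well above *Cebpa* (779 ± 98.4).

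**Figure D4:**
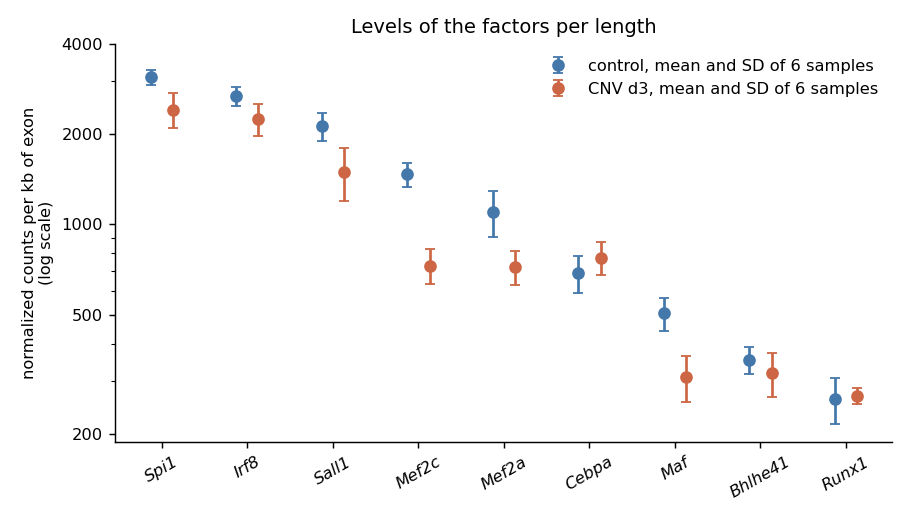
Levels of the 9 lineage factors in normalized counts per kb of exon (log axis), mean and SD of 6 control and 6 CNV d3 samples, ordered by the control mean. Mef2c and Mef2a drop to near the level of Cebpa at CNV d3 on this scale, though not with the longest transcript as length, and Maf to near that of Bhlhe41.

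The factors also differed in how much they varied within a group. In controls the SD of log2 *Spi1* was 0.08, below that of all but 1.99% of the 3877 highly expressed genes, and that of *Irf8* was 0.10 (5.16%); the median gene of this range had 0.26. At CNV d3 the SD of *Spi1* and of *Irf8* was 0.19, close to the median of 0.18. *Sall1* varied most of the 9 factors at CNV d3, with an SD of 0.27 at percentile 83.7, after 0.15 in controls. *Runx1* went the other way, from 0.24 in controls to 0.09 at CNV d3 (percentile 5.47). No test of these SDs was made.

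Some of these genes share exonic bases with a neighbour on the opposite strand, and reads on bases shared by more than 1 gene were left out of the counts. The overlap takes 1280 bases or 19.05% of the exonic bases of *Bhlhe41* (with *Gm43909*), 440 bases of *Maf* (with *Gm15655*), 302 of *Mef2a* (with *Lysmd4*), 106 of *Runx1* (with *Gm26626*) and 51 of *Cebpa* (with *Gm45091*). *Spi1*, *Irf8*, *Sall1* and *Mef2c* have none. The levels per kb of the first 5 genes may to that extent be too low.

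Of 19 relatives of the 9 factors, genes of the same families or partner genes, 16 were measured. Of these 2 fell (12.5%) and 5 rose (31.25%), or 3 by edgeR, beside 4.57% and 8.29% of all genes and 15.1% and 22% of the highly expressed ones, and nothing is read from these counts. The median log2 fold change was 0.70 over all 16 and -0.08 over the 11 with a mean of at least 100 normalized counts, of which 2 fell and 2 rose. *Sall3*, a second SALL repressor, fell from 2981 ± 423 to 1899.6 ± 332 normalized counts (log2 fold change -0.66, limma adjusted p = 0.00489). *Cebpd*, a C/EBP factor of the acute phase response, fell from 2245 ± 262 to 1284 ± 370 (SD, n = 6 each; -0.85, limma adjusted p = 0.00419). *Cebpg*, which encodes a C/EBP partner without an activation domain, was the most abundant of those that did not pass, at 3969 ± 774 and 3027 ± 395 normalized counts (log2 difference -0.38, limma adjusted p = 0.0668). *Cbfb* and *Bhlhe40* rose as given above, and the other 3 that rose were *Spib*, *Runx3* and *Runx2*, all at low levels.

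*Spib*, the PU.1 relative of B cells and plasmacytoid dendritic cells, had no read in any control and 0 to 113 normalized counts at CNV d3, at least 10.1-fold higher in the mean when 3 reads in the shallowest control are taken as the floor. *Runx3*, used in lymphocytes and some dendritic cells, rose from 7.36 to 54.4 normalized counts and *Runx2*, the RUNX factor of bone that plasmacytoid dendritic cells also express, from 3.49 to 23.2 in the mean (limma adjusted p = 0.0385 and 0.0347). Neither passed with edgeR (0.119 and 0.167), by which 3 relatives rose; *Runx2* is named here after its values were seen.

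Among 27 further transcription factors of myeloid cells 6 fell (22.2%) and 3 rose (11.1%), or 1 by edgeR. Of all genes 4.57% fell and 8.29% rose, and of the highly expressed ones 15.1% and 22%, and nothing is read from these counts. The median log2 fold change of the 27 factors was -0.16, and -0.30 over the 21 with a mean of at least 100 normalized counts, which include all 6 that fell. *Fli1*, an ETS factor of blood and endothelium, fell from 6606 ± 1046 to 3866 ± 437 normalized counts (SD, n = 6 each; log2 fold change -0.77, limma adjusted p = 4.75e-04). *Tcf4*, an E protein, fell from 4136 ± 611 to 2389.7 ± 303 (-0.79, limma adjusted p = 5.34e-04). *Klf6* (-0.57), *Ikzf1*, which encodes Ikaros (-0.47), *Ets1* (-0.51) and *Smad2*, which transmits TGF-beta signals (-0.63), fell by less. *Zeb2*, a factor that helps to keep macrophage identity, was the most abundant of those that did not pass, at 4823 ± 888 and 4737 ± 354 normalized counts (log2 difference -0.01, limma adjusted p = 0.977). The 3 that rose, named after their values were seen, were *Id2*, an inhibitor of E proteins (685 ± 164 to 2119 ± 528 normalized counts, log2 fold change 1.61, limma adjusted p = 1.35e-04), and, at low levels, *Nr1h3* and *Myb*, of which edgeR called neither.

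Of 12 genes known to depend on PU.1 in macrophages, 2 fell (16.7%) and 3 rose (25%), beside 4.57% and 8.29% of all genes. These shares are close to the 15.1% and 22% of all highly expressed genes, so that nothing is read from these counts. The median log2 fold change of the 12 genes was 0.04. *Cd14* (19517 ± 778 to 11534.5 ± 2820.1 normalized counts, log2 fold change -0.79) and *Tlr4* (5347 ± 690 to 3552 ± 456, -0.59), the receptors for bacterial endotoxin, fell. *Itgam*, the integrin CD11b used for sorting, rose from 6403 ± 557 to 10544 ± 1082 (0.72), *Cybb*, the oxidase subunit, from 2643 ± 1069 to 7671 ± 2164 (1.58), and the scavenger receptor *Msr1* from 55.4 ± 34.1 to 877 ± 212 (4.76). The limma adjusted p of these 5 genes lay between 9.45e-05 for *Itgam* and 0.00206 for *Msr1*. *Csf1r*, the receptor on which microglia depend for survival, had 345828 ± 10697 and 303485 ± 44712 normalized counts and did not pass (log2 difference -0.20 ± 0.09, limma adjusted p = 0.157).

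Of 10 genes of the homeostatic microglial signature 7 fell (70.0%) and none rose, also by edgeR, with a median log2 fold change of -0.95. Beside this, 4.57% of all genes and 15.1% of the highly expressed genes fell. *P2ry13* (-1.82) and *P2ry12* (-1.65), receptors for nucleotides, fell the most among those named by abundance, followed by *Gpr34* (-1.15), *Tmem119* (-1.06), *Cx3cr1* (-0.84) and *Siglech* (-0.51). The decreases of *Mef2c* (-1.02) and *Maf* (-0.71) were thus as large as those of some signature genes, while *Spi1* (-0.37) changed by less than any of these 6. These differences between genes were not tested. *Olfml3*, a secreted glycoprotein of microglia, was the most abundant signature gene that did not pass (94056 ± 7610 and 90893 ± 7649 normalized counts, log2 difference -0.05).

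For each factor the 2 most similar genes were sought among 9712 genes with a mean of at least 100 normalized counts, by the root mean square difference of their centred log2 profiles over the 12 samples. *Spi1* was closest to *H2-DMa* (0.07) and to *Irf5* (0.10), *Irf8* to *Tsc22d4* (0.09) and *Zmiz1* (0.09). *Sall1* was closest to *Tgfbr2* (0.11), the type II TGF-beta receptor, and to *Cadm1* (0.11), and *Maf* to *Creg1* (0.11) and *Jam2* (0.12). *Mef2a* resembled *Tmem135* (0.13) and *I830077J02Rik* (0.14), and *Mef2c* resembled *Elmo1* (0.12), an adaptor in engulfment, and *Samsn1* (0.13). The nearest profiles to *Runx1* were those of *Stau1* (0.08) and *Ppp4r3a* (0.08), to *Bhlhe41* those of *Slc35b2* (0.13) and *Maea* (0.14), and to *Cebpa* those of *Snrpb* and *Smox* (both 0.12). The samples fall into 2 groups, so that these distances reflect in part the size of the change and in part the spread, and they are descriptions without a test.

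Some markers of monocytes and dendritic cells, and genes of cell division, were also higher at CNV d3. The 6 monocyte markers summed to 36.1 to 293 normalized counts in controls and to 558 to 2762 at CNV d3, with 3 of 6 called higher; *Ly6c2* and *Chil3* were at 0 in all controls, and *Ly6c2* reached at most 25.1 at CNV d3. The 6 dendritic cell markers summed to 5.63 to 476 and to 198 to 2092, ranges that overlapped, with 4 of 6 higher (3 by edgeR). These 4 were *Flt3*, *Xcr1*, *Cd209a* and *Ccr7*, while *Zbtb46* (169 and 136 in the mean) and *Clec9a* (4.49 and 3.85) did not pass. *Ccr7* had the highest mean of the 6 at CNV d3, 720 normalized counts, and was at 0 in 1 CNV d3 sample. Of all genes 8.29% were called higher. The 6 measured border macrophage markers did not move as a group: the sums overlapped (262 to 2186 and 864 to 3317), *Siglec1* (383 to 1812 in the mean) and *Folr2* were called higher, *Siglec1* alone by edgeR, and *Mrc1* had 349.7 and 113 normalized counts (log2 difference -1.44, limma adjusted p = 0.233). All 5 cell division genes were higher, with sums of 88.3 to 869 in controls and 5759.5 to 14651 at CNV d3. Sums of photoreceptor transcripts (692 to 6537 and 524 to 11928), Müller glia (6803 to 9773 and 5157 to 7541), endothelial (500.3 to 989.8 and 457 to 965) and pigment epithelium transcripts (2.15 to 264 and 73.9 to 268) overlapped between the groups. Within these lists *Slc1a3* of Müller glia (limma adjusted p = 0.0208) and endothelial *Pecam1* (392 to 138 in the mean, 0.0236) were called lower. Endothelial *Kdr* was called higher (315 to 595, limma adjusted p = 0.0452). By edgeR photoreceptor *Sag* was also higher (180 to 815, adjusted p = 0.0198).

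*Sall1* is shown beside these sums because its extremes matched them, a choice made after the values were seen. Within the CNV d3 group it was lowest in samples 3 (6495) and 6 (6645), which had the highest monocyte sums (2762 and 2308), and highest in samples 4 (10738) and 1 (8507), which had the lowest (558 and 561). The other called factors followed this order only in part or not at all. *Mef2c* was lowest in samples 6 and 3 and highest in sample 5 (12947), *Maf* was lowest in sample 6 and highest in sample 1, *Mef2a* was lowest in sample 3 and highest in sample 4, and *Spi1* was lowest in sample 5 (5604) and highest in sample 2 (7789), with 6202 in sample 4. By the labels, sample 4 was also the only CNV d3 sample listed in 2 parts, as were all 6 controls, whereas the study's methods describe a pair of files from separate flow cells for every sample. Without samples 3 and 6, chosen after the data were seen, 2 factors were called lower, *Mef2c* (log2 fold change -0.90, limma adjusted p = 3.15e-04) and *Maf* (-0.62, 0.0180). *Sall1* (-0.40, 0.0896), *Mef2a* (-0.53, 0.0626) and *Spi1* (-0.32, 0.0723) then did not pass across all genes, of which 688 were lower in place of 1247 with these 4 CNV d3 samples. The part of other cells, of division or of the 2 listed parts in the decreases was not tested.

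**Figure D5:**
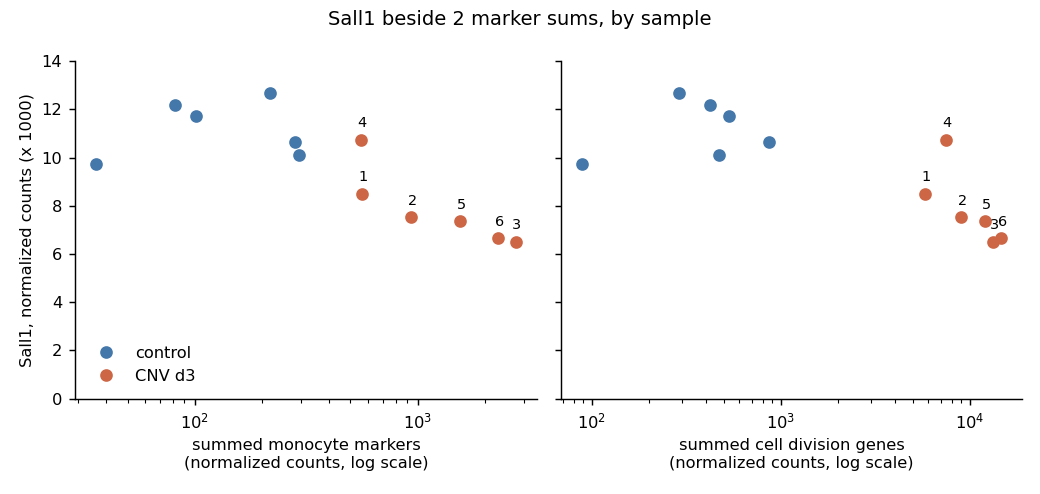
Normalized counts of Sall1 (axis in units of 1000, linear from 0) against the summed normalized counts of 6 monocyte markers (left) and 5 cell division genes (right, both log axes) in 6 control and 6 CNV d3 samples, the latter with their sample number. Sample 4 has the lowest monocyte sum (558) and the highest Sall1 value (10738) of the CNV d3 group.

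The 5 decreased factors stayed significant in each of the 12 fits that left out 1 sample. The log2 fold change ranged over these fits from -1.06 to -0.96 for *Mef2c*, -0.79 to -0.64 for *Maf*, -0.69 to -0.55 for *Mef2a*, -0.61 to -0.47 for *Sall1* and -0.42 to -0.33 for *Spi1*. All 5 were also called by edgeR and DESeq2 on the recovered reads, and with reads thinned to the total of the shallowest control.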

How the data were processed

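Retinal microglia were sorted, and RNA was amplified (SMARTer v4), tagmented and sequenced as single reads. The authors mapped reads with STAR 2.7.2b to GRCm38.p6 (Gencode M25), merged the files of each sample, counted with featureCounts 1.6.4 without strand and removed genes without reads. The deposited values are a signal, read counts divided by DESeq2 1.22.2 size factors. The labels list 19 entries for 12 samples, since 7 samples have 2 parts; the deposited table holds 1 column per sample. Its further columns, the authors' group means, log2 fold changes and adjusted p-values, were not used. All values were whole multiples (tolerance 0.01) of 1 read, from which the reads were recovered.

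limma 3.58.1 (R 4.3.3) was run on log2(value + 1) with a prior variance that follows the mean, over all genes. Ratios and orders were tested by exact permutation (numpy 2.4.6), and the t quantiles of the confidence intervals came from scipy 1.17.1. Alternatives included edgeR 4.0.16 and DESeq2 1.42.0. Exon lengths came from Gencode M21 on the same build. The test was checked on simulated data with 200 changed genes. It recovered 3 of them at a log2 fold change of 0.5, 154 at 1 and 200 at 2. Far more genes were called in the data (1247 lower and 2264 higher), which makes the adjusted cutoff less strict, and *Spi1* passed at -0.37. The simulated recovery therefore sets no limit for the factors. A factor that did not pass is still not shown to be unchanged, since sizes within its confidence interval are not excluded. The intervals ran from -0.44 to -0.07 for *Irf8*, -0.18 to 0.29 for *Runx1*, -0.41 to 0.10 for *Bhlhe41* and -0.08 to 0.43 for *Cebpa*. Of 4 lists of related factors and targets, up to 6 genes that passed and the most abundant gene that did not were named. Some genes and 1 ratio of these lists are not reported here and were left out of the counts, sums and adjustments. The factors, lists and tests were chosen with earlier results of these data known.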

Additional observations from a re-analysis of the deposited data

Results flagged for a closer look

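*Runx1* in CNV d3 sample 5 had 3637 normalized counts, and the next highest sample of the group had 3239, with a lowest value of 3092. The gap to the next sample was 0.714 of the whole log2 range, above Dixon's 95% critical value for a group of 6. It was 1 of 28 groups of values examined in this way (9 factors and 5 ratios in both groups), and chance gives about 1 in 20.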

How the results depend on the processing

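Over 26 alternatives the 5 decreased factors kept their direction. Called lower were 3 factors with a constant prior variance (*Spi1* and *Sall1* lost) and 2 without CNV d3 samples 3 and 6, an alternative added after seeing the data, under which 688 of all genes were lower, 1124 higher, and 4 relatives and 5 further myeloid factors changed. An adjusted p under 0.01 left 4 factors called lower (*Spi1* lost, limma adjusted p = 0.0129). It left 635 lower and 1183 higher genes, and DESeq2 gave 2170 lower genes. *Runx1* turned to -0.024 with upper quartile scaling, and from -0.0015 to 0.13 over the fits without 1 sample. The *Cebpa* to *Cebpb* difference ranged from -0.39 to -0.20 over such fits. With the longest transcript as length 2 factors in controls and 1 at CNV d3 held their rank. The causes were not tested. With a replicate block 5 factors were called lower and 975 of all genes. Equal numbers did not deviate together (correlations of -0.053 to 0.071). No label names a pairing, and whether equal numbers share more than the number is not known. Intervals cover the spread of 6 samples per group.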
